A study of Mus musculus with 92 samples.

Results

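The genes described here are 8 members of the Notch pathway and its surroundings in the mouse intestine: the ligands Dll1, Dll4 and Jag1, the receptors Notch1 and Notch2, the Notch target Hes1, the secretory fate factor Atoh1, and Olfm4, a marker of crypt stem cells. They were taken by gene name from tables of 54532 genes, and all 8 genes were found in each of the 4 tables. All 8 also passed the filter on low counts in each of the 24 comparisons. The 92 RNA-seq libraries were made from intestine, organoids and fetal spheroids in which Eif4g2, a gene for a translation initiation factor, was deleted by CreER, a recombinase that tamoxifen switches on, and from organoids given A-485, which blocks the catalytic activity of p300 and CBP, a pair of enzymes that acetylate histones. Levels are given in CPM, a gene's counts relative to the size of its library, after TMM scaling within a table.

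In the tissue, homozygous mice carried 2 floxed copies of Eif4g2 (flox/flox) and heterozygous mice 1 (flox/+), all mice carried CreER, and all had received tamoxifen. Rosa26-CreER, which is active in most cell types, was sampled on day 9 with 4 homozygous and 5 heterozygous crypt libraries and 5 and 5 villus libraries. Vil1-CreER, which is active in the intestinal epithelium, was sampled at month 3, after 4 daily injections of 100 mg/kg, with 3 homozygous and 4 heterozygous crypt libraries and 6 and 4 villus libraries. Each crypt library had a villus library from the same animal, while 1 Rosa26-CreER and 3 Vil1-CreER homozygous villus libraries had no crypt library, and the animals' ages at injection were not given. All cultures were grown in ENR medium (EGF, Noggin and R-spondin). The first organoid set held 3 flox/flox Rosa26-CreER lines with DMSO or with 0.5 µM 4-hydroxytamoxifen (4-OHT) for 24 h, collected on day 6. A second set, all given 0.5 µM 4-OHT for 24 h and collected on day 6, held 4 flox/flox, 4 flox/+ and 4 CreER-only libraries with wild-type Eif4g2. Fetal spheroids came from 6 flox/flox and 5 flox/+ lines, each with DMSO and with 0.5 µM 4-OHT for 24 h, collected on day 6. The A-485 set held 4 organoid lines, 1 wild-type (S6026) and 3 flox/flox (S6070, S6074, S6076), none given 4-OHT, with DMSO or with 3, 5 or 10 µM A-485, collected on day 4.

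Notch signalling passes between neighbouring cells. A ligand of the Delta or Jagged family on one cell binds a Notch receptor on the next, the receptor is cut, and its intracellular part enters the nucleus, where it joins the DNA-binding protein RBPJ, Mastermind proteins and the acetyltransferases p300 and CBP. Hes1, a repressor of the basic helix-loop-helix family, is a direct target and keeps Atoh1 off, so that cells with Notch activity stay proliferative or become absorptive and cells without it express Atoh1 and become goblet, Paneth or enteroendocrine cells. Secretory cells in turn carry Dll1 and Dll4, and crypt base columnar cells, which receive the signal through Notch1 and Notch2, express Olfm4.

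Promoter sequences were taken from RefSeq (build GRCm38.p6, 250 bases before to 50 bases after each annotated start), where 7 of the 8 genes matched with 8 promoters in all. They are shown for the genes whose promoters held 1 of 2 motifs, the RBPJ core TGGGAA or the E-box CAGCTG of the kind that ATOH1 can bind. The motif is in capitals. Olfm4, the gene that fell most in crypts and organoids, has TGGGAA 12 bases before its start, at chr14:80000052-80000351 on the plus strand. Jag1, the ligand that went the other way, has CAGCTG 82 bases before its start, at chr2:137116471-137116770 on the minus strand. Of the 2 Dll1 promoters, the one at chr17:15376883-15377182 on the minus strand has CAGCTG 132 bases before its start.
Olfm4: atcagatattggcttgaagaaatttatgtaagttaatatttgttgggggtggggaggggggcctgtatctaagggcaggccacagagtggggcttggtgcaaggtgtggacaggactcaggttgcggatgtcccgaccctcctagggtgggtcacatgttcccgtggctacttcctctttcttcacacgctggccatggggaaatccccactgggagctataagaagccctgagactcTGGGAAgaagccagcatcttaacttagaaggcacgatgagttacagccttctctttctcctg
Jag1: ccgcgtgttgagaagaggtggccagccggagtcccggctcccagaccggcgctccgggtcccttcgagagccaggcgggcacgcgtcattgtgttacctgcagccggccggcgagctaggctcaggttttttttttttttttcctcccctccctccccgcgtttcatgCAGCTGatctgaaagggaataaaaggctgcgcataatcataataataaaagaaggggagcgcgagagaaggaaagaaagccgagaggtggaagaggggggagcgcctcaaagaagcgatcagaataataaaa
Dll1: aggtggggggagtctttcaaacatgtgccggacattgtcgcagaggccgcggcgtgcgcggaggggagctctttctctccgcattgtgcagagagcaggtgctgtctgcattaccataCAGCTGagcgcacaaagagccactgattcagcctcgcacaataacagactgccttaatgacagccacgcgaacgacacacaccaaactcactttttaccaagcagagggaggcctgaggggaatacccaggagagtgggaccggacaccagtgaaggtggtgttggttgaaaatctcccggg

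Both strands were searched. TGGGAA was in 25.6% and CAGCTG in 16.3% of all 32851 RefSeq promoters of that length, so matches of this kind are common and describe the letters only. The third motif searched, the N-box CACNAG that HES proteins can bind, was in 42.5% of all promoters and in those of Dll1, Dll4, Notch1, Notch2 and Atoh1. Among the matches, only 2 N-boxes near the Notch1 start overlapped each other, on opposite strands. In the tables' annotation (GRCm38) Dll1 lies on chromosome 17 at 15367354 to 15376872, Dll4 on chromosome 2 at 119325784 to 119335962 and Jag1 on chromosome 2 at 137081456 to 137116644. Notch1 lies on chromosome 2 at 26457903 to 26516663 and Notch2 on chromosome 3 at 98013527 to 98150361. Hes1 is on chromosome 16 at 30064384 to 30067796, Atoh1 on chromosome 6 at 64729125 to 64731245 and Olfm4 on chromosome 14 at 79984081 to 80023139. The RefSeq promoters of Olfm4 and Notch1, and the Dll1 promoter not shown, lie wholly inside these gene spans rather than at their start. Values are gene totals over all exons. The strand setting used in counting is not given in the sources used here, and Dll1, Dll4 and Notch1 overlap genes on the opposite strand, while Notch2 and Olfm4 overlap predicted genes on their own strand.

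Library totals ran from 8652040 to 37611126 counts. Eif4g2 was lower in every library with both copies targeted than in its controls: 68.4 to 101 CPM against 341 to 363 in Rosa26-CreER crypts, 230 to 244 against 478 to 498 in Vil1-CreER crypts, 141 to 147 against 690 to 777 in the first organoids, and 87.4 to 222 against 728 to 1203 in flox/flox spheroids. In tissue, fewer cells of a type and less RNA per cell cannot be told apart. Markers of 3 other cell classes moved with genotype in the crypt libraries: the summed level of 8 immune markers had a median of 351 CPM (49.0 to 480) in homozygous and 93.0 CPM (66.5 to 248) in heterozygous Rosa26-CreER crypts, that of 10 stromal and muscle markers 535 (38.8 to 2040) and 177 CPM (24.8 to 850), and that of 7 endothelial markers 12.03 (2.19 to 20.98) and 3.70 CPM (2.87 to 6.67). In Vil1-CreER crypts immune markers had a median of 458 CPM (360 to 522) in homozygous and 219 CPM (59.9 to 574) in heterozygous libraries. Stromal and muscle markers there had medians of 30.7 (14.5 to 39.3) and 12.6 CPM (4.19 to 27.6). Those of endothelial markers were 20.4 (17.8 to 20.4) and 8.55 CPM (2.85 to 29.2). No marker was at 0 in the Rosa26-CreER groups. Mitochondrial genes took 13.7 to 25.2% of counts in homozygous and 6.24 to 12.4% in heterozygous Rosa26-CreER crypts. In Vil1-CreER crypts they took 30.4 to 40.3% and 17.5 to 30.8%. The Y-linked gene Ddx3y had over 10 reads in all heterozygous Rosa26-CreER libraries while among homozygous libraries it did in 1 of 4 from crypts and 2 of 5 from villi.

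In control tissue, Notch1, Notch2, Hes1 and Olfm4 were crypt genes. Olfm4 stood at 3967, 6160, 4447, 3536 and 4717 CPM in the 5 heterozygous Rosa26-CreER crypt libraries and at 19.99, 16.7, 46.5, 16.7 and 4.85 CPM in the villi of the same animals, a log2 difference of 7.69 ± 0.59 (SE; adjusted p = 2.01e-07, edgeR quasi-likelihood test). All 5 crypt libraries were above all 5 villus libraries. The receptors followed, with log2 crypt over villus differences of 2.82 ± 0.25 for Notch1 and 2.60 ± 0.24 for Notch2, and Hes1 with 2.10 ± 0.16. Jag1 was modestly higher in crypts (0.65 ± 0.13) and Atoh1 by 1.64 ± 0.17, whereas Dll4 did not pass after TMM scaling (0.11 ± 0.13, adjusted p = 0.471, edgeR). In all, 7 of the 8 genes differed between compartments, where 77.1% of all tested genes did.

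In Vil1-CreER heterozygous mice 6 of the 8 genes differed between compartments, where 67.9% of all tested genes did. Olfm4 was higher in crypts by 5.91 ± 0.42, Notch2 by 3.06 ± 0.31, Notch1 by 2.60 ± 0.14, Hes1 by 1.85 ± 0.18 and Jag1 by 0.57 ± 0.17 on the log2 scale. Atoh1 did not pass the test there (0.19 ± 0.16, adjusted p = 0.324, edgeR). The sign for Dll1 depends on the scaling: it was lower in crypts after TMM scaling (-0.43 ± 0.11 with Rosa26-CreER and -0.58 ± 0.16 with Vil1-CreER), but with scaling by library totals the log2 ratio of its means was 0.53 and 0.02, since that scaling moved the median of all genes by 0.90 and 0.59. The other signs given for crypt against villus did not turn under that scaling. The log2 ratio of Dll4 means went from 0.17 to 1.07 with Rosa26-CreER and from 0.29 to 0.87 with Vil1-CreER.

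**Figure D1:**
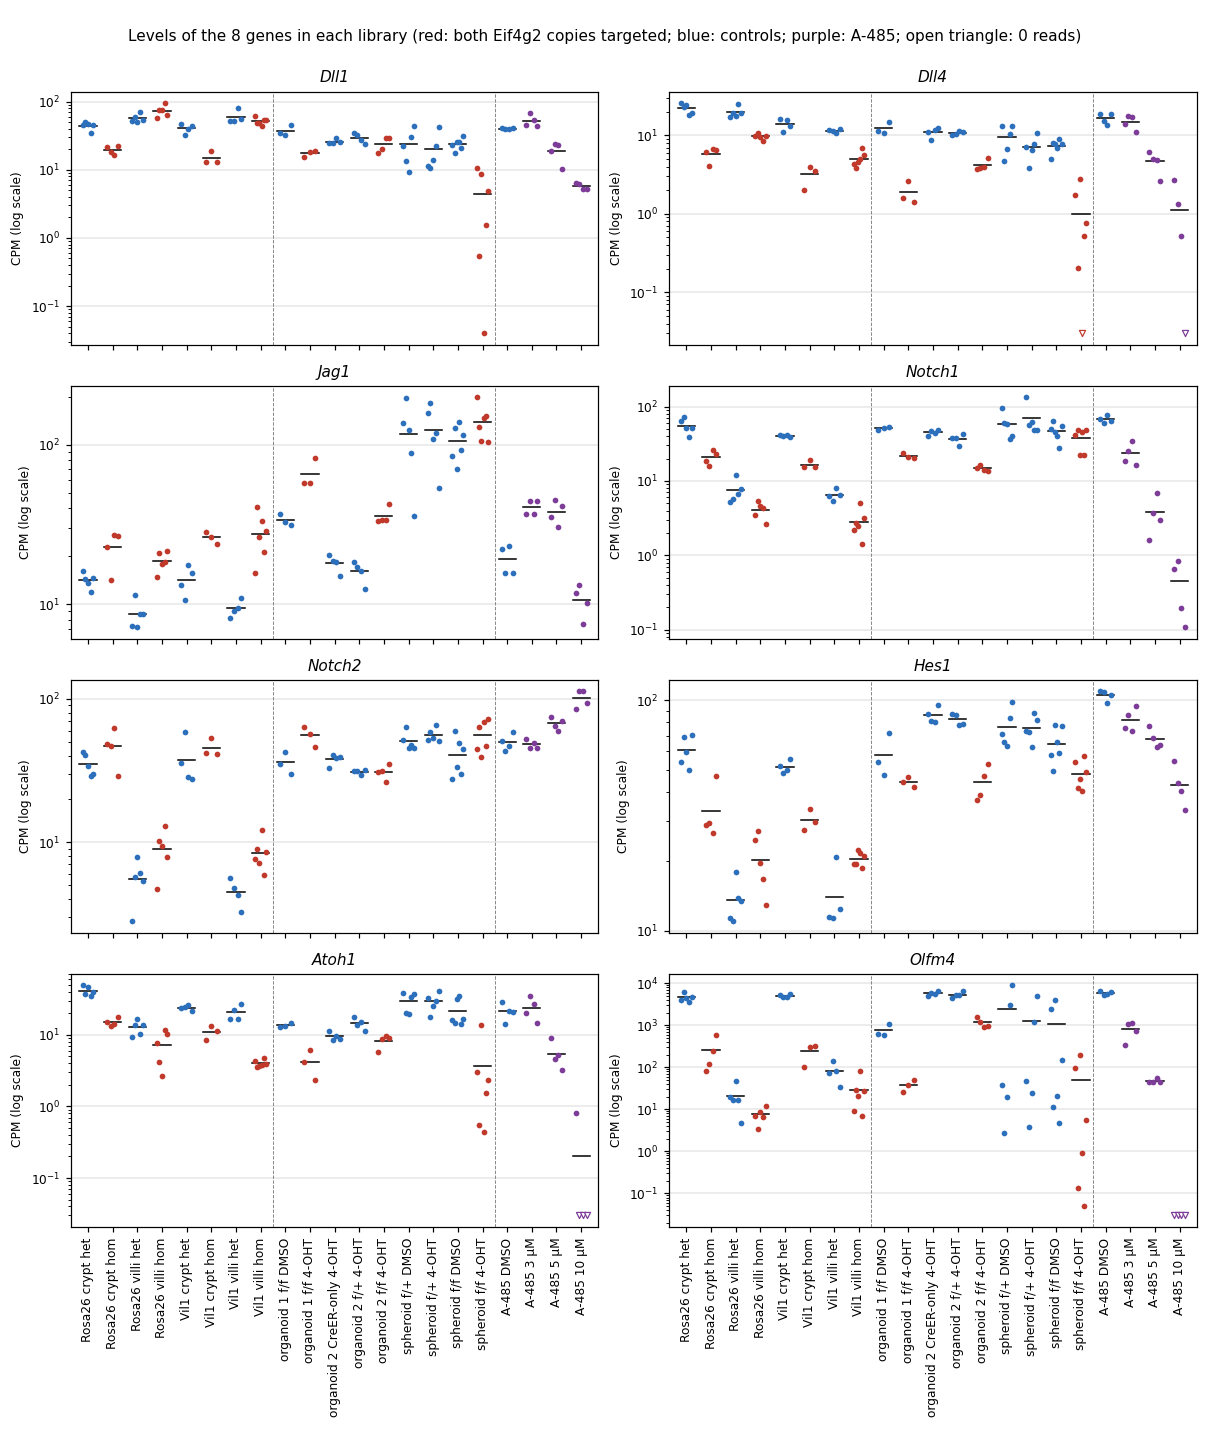
Level of each gene in every library (CPM, log axis), by group. Points are libraries, black bars group means, red groups have both Eif4g2 copies targeted, purple groups received A-485 and open triangles mark libraries without a read. In tissue and organoids the red points of Dll4, Notch1 and Olfm4 lie mostly below their controls and those of Jag1 mostly above, with overlap for Olfm4 in villi of both drivers, Notch1 in Rosa26-CreER villi and Jag1 in Rosa26-CreER crypts.

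Deletion in crypts lowered both Delta ligands and raised Jag1. Dll4 stood at 6.19, 4.09, 6.71 and 6.47 CPM in homozygous and at 25.7, 22.9, 24.3, 18.3 and 19.1 CPM in heterozygous Rosa26-CreER crypts, and fell by 1.85 ± 0.17 on the log2 scale (adjusted p = 0.000305, edgeR). Dll1 stood at 21.6, 17.9, 16.3 and 22.1 CPM against 44.9, 49.3, 46.4, 34.9 and 45.4 CPM and fell by 1.12 ± 0.12 (adjusted p = 0.000593, edgeR). Neither ligand's groups overlapped. Jag1, the ligand whose groups did overlap, had 22.8, 14.1, 27.3 and 26.9 CPM against 16.1, 14.3, 13.6, 11.9 and 14.5 CPM. It rose by 0.76 ± 0.17 (adjusted p = 0.0145, edgeR), with 3 of the 4 homozygous libraries above all controls. That call was lost when replicate numbers entered as a block (0.73, adjusted p = 0.0578, edgeR), when Ddx3y reads entered as a covariate (adjusted p = 0.0823, edgeR), and without homozygous replicate 4 (adjusted p = 0.0574, edgeR). The median summed levels of immune, stromal and endothelial markers were higher in the homozygous group, with ranges that overlapped the controls for each class, and their part in the Jag1 values was not tested.

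The same ligands changed in Vil1-CreER crypts at month 3. Dll4 was at 2.03, 3.95 and 3.56 CPM in homozygous and 16.03, 10.9, 15.9 and 13.1 CPM in heterozygous libraries (log2 difference -2.07 ± 0.25, adjusted p = 0.000835, edgeR), and Dll1 at 12.8, 19.1 and 12.9 against 47.3, 31.9, 39.0 and 43.9 CPM (-1.38 ± 0.18, adjusted p = 0.00117, edgeR). Jag1 was at 28.3, 26.6 and 24.0 against 13.2, 10.6, 17.7 and 15.6 CPM, a rise of 0.95 ± 0.16 (adjusted p = 0.00389, edgeR). With this driver all 3 ligands were separated between genotypes, Jag1 upward and the Delta ligands downward.

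The receptors parted in crypts. Notch1 was at 18.6, 15.7, 26.4 and 23.0 CPM in homozygous and 63.0, 72.1, 50.9, 38.8 and 51.8 CPM in heterozygous Rosa26-CreER crypts, a fall of 1.33 ± 0.20 (adjusted p = 0.00241, edgeR), and at 15.3, 18.9 and 15.2 against 42.1, 39.9, 41.2 and 38.9 CPM with Vil1-CreER, a fall of 1.24 ± 0.10 (adjusted p = 0.00014, edgeR). Every homozygous library was below every control with both drivers. Notch2 was at 48.7, 46.9, 62.7 and 29.1 CPM against 42.2, 40.7, 33.7, 29.0 and 29.6 CPM with Rosa26-CreER and did not pass the test (0.50 ± 0.23, adjusted p = 0.148, edgeR). It did not pass with Vil1-CreER either (0.33 ± 0.29, adjusted p = 0.45, edgeR), and its groups overlapped with both drivers. It passed, as a rise, without Rosa26-CreER homozygous replicate 5 (0.70, adjusted p = 0.0108, edgeR) and without Vil1-CreER heterozygous replicate 2 (0.64, adjusted p = 0.0102, edgeR).

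Among the genes downstream, Hes1 and Atoh1 fell together in crypts. Hes1 had 28.6, 29.4, 26.6 and 47.1 CPM in homozygous and 53.8, 68.9, 59.5, 49.96 and 70.6 CPM in heterozygous Rosa26-CreER crypts, and fell by 0.82 ± 0.15 (adjusted p = 0.00685, edgeR). Atoh1 had 15.2, 13.5, 14.04 and 17.8 CPM against 49.3, 37.5, 46.0, 34.997 and 40.3 CPM and fell by 1.40 ± 0.12 (adjusted p = 0.00025, edgeR). Neither gene's groups overlapped. In Vil1-CreER crypts Hes1 fell by 0.70 ± 0.08 (27.4, 33.7 and 29.7 against 51.9, 48.1, 49.8 and 55.5 CPM) and Atoh1 by 1.04 ± 0.16 (8.37, 13.5 and 11.5 against 23.9, 24.3, 25.8 and 21.4 CPM), again without overlap. Summed Paneth and goblet markers, which are made by Atoh1-dependent cells, had medians of 3239 and 2971 CPM in homozygous and 14466 and 5887 CPM in heterozygous Rosa26-CreER crypts.

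Olfm4 changed most of the 8 genes in crypts. It had 83.4, 122, 249 and 599 CPM in homozygous Rosa26-CreER crypts, against 3536 to 6160 CPM in the controls given above, and fell by 4.09 ± 0.56 on the log2 scale (adjusted p = 0.00178, edgeR). In Vil1-CreER crypts it had 99.2, 303 and 320 CPM against 5254, 4697, 4646 and 5418 CPM and fell by 4.32 ± 0.43 (adjusted p = 0.000598, edgeR). The highest homozygous library stayed far below the lowest control with either driver. Counted together, 7 of the 8 genes passed the test with each driver, 1 upward and 6 downward, where 20.2% of all genes did with Rosa26-CreER and 29.3% with Vil1-CreER. The median log2 change of the 8 genes was -1.23 and -1.14, beside 0.04 and 0.01 over all tested genes. Since the 8 genes were chosen with earlier results of these data known, this contrast is a description.

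In Rosa26-CreER villi 4 of the 8 passed, 1 upward and 3 downward, where 33.2% of all genes did. Dll4 was at 9.75, 10.8, 9.49, 8.54 and 9.82 CPM in homozygous and at 17.4, 19.2, 17.6, 24.9 and 19.1 CPM in heterozygous villi (-1.09 ± 0.12, adjusted p = 0.000109, edgeR), and Jag1 at 14.8, 21.1, 17.7, 18.5 and 21.4 against 7.30, 11.4, 7.15, 8.64 and 8.68 CPM (1.05 ± 0.14, adjusted p = 0.000398, edgeR). These were the only genes of the 8 whose groups did not overlap there. Notch1 fell by 0.96 ± 0.27 (adjusted p = 0.0184, edgeR) at low levels, 2.64 to 5.40 against 5.20 to 11.9 CPM, and was not called with Ddx3y reads as a covariate (adjusted p = 0.137, edgeR). Olfm4 fell by 1.54 ± 0.53 (adjusted p = 0.0485, edgeR), a call lost in 8 of the 10 fits that leave out 1 library (-0.95 without heterozygous replicate 3) and without the filter on low counts (adjusted p = 0.128, edgeR). Dll1 (0.28 ± 0.13), Notch2 (0.61 ± 0.30), Hes1 (0.49 ± 0.22) and Atoh1 (-0.88 ± 0.36) did not pass. Hes1 passed with Ddx3y reads as a covariate (0.86, adjusted p = 0.0204, edgeR). It also passed without homozygous replicate 5 or heterozygous replicate 3 (adjusted p = 0.0264 and 0.0288, edgeR). Atoh1 passed with the DESeq2 test (adjusted p = 0.0418) and without homozygous replicate 4 (adjusted p = 0.045, edgeR).

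With Vil1-CreER, 6 of the 8 genes passed in villi, 3 in each direction, where 42.5% of all genes did. Jag1 was at 15.6, 21.2, 26.3, 28.6, 33.2 and 40.8 CPM in the 6 homozygous villus libraries in order of size and at 8.18, 9.04, 9.50 and 10.99 CPM in the 4 controls, and rose by 1.54 ± 0.23 (adjusted p = 0.000172, edgeR). Atoh1 ranged from 3.57 to 4.69 CPM (median 3.90) against 16.8, 22.4, 16.5 and 27.0 CPM and fell by 2.37 ± 0.17 (adjusted p = 4.09e-07, edgeR). Both genes were fully separated between genotypes. Dll4 fell by 1.20 ± 0.18 and Notch1 by 1.21 ± 0.29, while Notch2 rose by 0.89 ± 0.23 (5.92 to 12.04 against 3.25 to 5.65 CPM). In these villi the 10 stromal and muscle markers summed to 18.2 to 33.5 CPM in homozygous and 1.58 to 6.30 CPM in heterozygous libraries, the 8 immune markers to 37.6 to 146 and 202 to 346 CPM, and their part in these results was not tested. Hes1 rose by 0.53 ± 0.17 (adjusted p = 0.0255, edgeR), with 18.7 to 22.3 CPM in homozygous villi and 11.5, 11.4, 20.7 and 12.3 CPM in the controls. Its groups overlapped through control replicate 3, and the call was lost without control replicate 1, 2 or 4 (adjusted p from 0.0821 to 0.088, edgeR). Dll1 (-0.23 ± 0.15) did not pass, and neither did Olfm4 (-1.54 ± 0.66, adjusted p = 0.0902, edgeR), which passed without homozygous replicate 4 (-2.20, adjusted p = 0.0105, edgeR). Olfm4 also passed with Ddx3y reads as a covariate (-1.79, adjusted p = 0.045, edgeR).

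**Figure D2:**
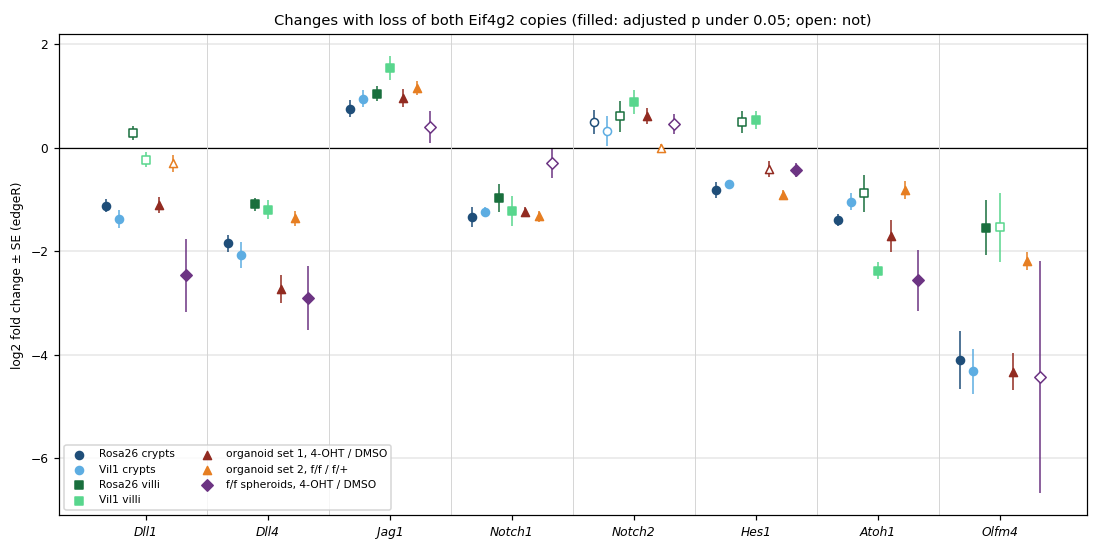
Log2 fold change ± SE of the 8 genes in 7 comparisons of libraries with both Eif4g2 copies targeted against their controls (edgeR). Filled symbols passed at an adjusted p under 0.05 and open symbols did not. Hes1 lies below 0 in crypts, organoids and spheroids and above 0 in villi.

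The effect of genotype was therefore compared between crypts and villi as an interaction, in which a negative value means a lower homozygous over heterozygous ratio in crypts than in villi. Hes1 differed with both drivers, by -1.42 ± 0.29 with Rosa26-CreER (adjusted p = 0.00703, edgeR) and -1.25 ± 0.21 with Vil1-CreER (adjusted p = 0.00193, edgeR). Dll1 did so as well, by -1.50 ± 0.20 and -1.17 ± 0.24. Olfm4 differed by -2.63 ± 0.77 and -2.80 ± 0.90 (adjusted p = 0.0363 and 0.0459, edgeR), calls that were lost without the filter on low counts (adjusted p = 0.0806 and 0.102, edgeR). In crypts, then, Hes1 and Dll1 had a lower ratio than in villi with each driver.

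Atoh1 went the other way with Vil1-CreER, where its fall was larger in villi (1.30 ± 0.24, adjusted p = 0.00341, edgeR). For Dll4 the interaction was -0.85 ± 0.21 with Rosa26-CreER (adjusted p = 0.0158, edgeR), and it did not pass with the animal as a block (-0.83, adjusted p = 0.0774, edgeR). With Vil1-CreER the Dll4 interaction was -0.90 and did not pass (adjusted p = 0.0513, edgeR), but it passed with the DESeq2 test (adjusted p = 0.0217). In each driver 4 of the 8 genes passed this test, where 11.5% of all genes did with Rosa26-CreER and 15.5% with Vil1-CreER. With the animal as a block, 777 genes in place of 1904 passed with Rosa26-CreER. Jag1, Notch1 and Notch2 did not pass in either driver, which does not show that their change was equal in both compartments.

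Organoids, in which immune markers summed to at most 7.14 CPM and stromal markers to at most 2.34 CPM, showed the crypt pattern for most of the 8 genes. In the first set 7 of the 8 passed, 2 upward and 5 downward, where 35.4% of all genes did. Dll4 was at 11.4, 10.7 and 14.9 CPM with DMSO and at 1.61, 2.66 and 1.40 CPM with 4-OHT in lines S6070, S6072 and S2080, and fell by 2.73 ± 0.28 (adjusted p = 0.000736, edgeR). Dll1 fell by 1.11 ± 0.15, from 35.1, 32.2 and 44.6 to 15.3, 18.1 and 19.0 CPM, and Jag1 rose by 0.96 ± 0.16, from 36.8, 32.5 and 31.2 to 57.4, 57.6 and 82.5 CPM. Each ligand moved the same way in all 3 lines. In the same set immune markers summed to 2.14 to 2.89 CPM with DMSO and 1.55 to 7.14 CPM with 4-OHT, and stromal markers to 0.708 to 1.08 and 0.850 to 1.21 CPM.

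The receptors moved apart in the same organoids. Notch1 fell by 1.24 ± 0.10 (48.1, 51.5 and 52.8 to 24.0, 21.1 and 20.4 CPM, adjusted p = 0.000338, edgeR), and Notch2 rose by 0.61 ± 0.16 (35.1, 42.7 and 30.1 to 63.8, 56.6 and 46.4 CPM, adjusted p = 0.0228, edgeR). The Notch2 call was lost in 4 of the 6 fits that leave out 1 library. Atoh1 fell by 1.71 ± 0.31 (12.8, 13.5 and 14.6 to 4.22, 6.12 and 2.34 CPM) and Olfm4 by 4.32 ± 0.35 (635, 581 and 1073 to 25.8, 38.9 and 50.8 CPM). Hes1, with 53.9, 47.2 and 71.8 CPM before and 44.0, 46.2 and 42.1 CPM after, was lower in all 3 lines but did not pass (-0.40 ± 0.15, adjusted p = 0.0789, edgeR). With the DESeq2 test it passed (adjusted p = 0.0452).

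In the second organoid set, flox/flox cultures differed from flox/+ cultures in 6 of the 8 genes, where 46.8% of all genes differed. Olfm4 was at 1576, 1213, 923 and 963 CPM against 4517, 5181, 5163 and 6530 CPM, a difference of -2.19 ± 0.18 (adjusted p = 2.2e-06, edgeR). Hes1, which had missed the threshold in the first set, was at 36.8, 38.9, 46.9 and 53.1 against 87.3, 86.1, 78.0 and 78.7 CPM (-0.91 ± 0.10, adjusted p = 5.54e-06, edgeR). Notch1 differed by -1.32 ± 0.10, Dll4 by -1.36 ± 0.15, Atoh1 by -0.81 ± 0.17 and Jag1 by 1.16 ± 0.13. For these 6 genes the groups did not overlap. Dll1 (-0.30 ± 0.16) and Notch2 (-0.01 ± 0.09) did not pass, unlike in the first set.

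Against CreER-only cultures, which shared the flox/flox libraries with that comparison, 6 genes passed, where 45.3% of all genes did. Dll4 (-1.38 ± 0.15), Notch1 (-1.60 ± 0.10), Hes1 (-0.96 ± 0.10) and Olfm4 (-2.27 ± 0.18) were lower and Jag1 (0.99 ± 0.13) higher. Notch2 passed at a small size, -0.29 ± 0.09 (adjusted p = 0.0141, edgeR), with overlapping groups. Atoh1 did not (-0.19 ± 0.18): CreER-only cultures had 11.5, 8.39, 9.54 and 8.69 CPM, flox/+ cultures 17.7, 13.8, 15.1 and 11.3 CPM and flox/flox cultures 5.70, 8.63, 9.69 and 9.04 CPM. Between flox/+ and CreER-only cultures, none of the 8 genes passed in edgeR or DESeq2 (0.113% of all genes did in edgeR), while 3 of them, Notch1, Notch2 and Atoh1, had an unadjusted p under 0.05.

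In flox/flox fetal spheroids 4-OHT lowered Dll1, Dll4, Atoh1 and Hes1. Atoh1 was at 16.2, 14.5, 31.5, 35.04, 14.4 and 16.5 CPM with DMSO and at 3.08, 0.549, 13.8, 0.439, 1.55 and 2.36 CPM with 4-OHT in lines S9484-D, S9488-F, S9484-A, S9488-D, S9488-H and S9020-A, and fell by 2.56 ± 0.59 (adjusted p = 0.0046, edgeR). Dll1 was at 23.0, 17.6, 25.4, 25.3, 20.7 and 31.7 CPM and then at 10.6, 0.549, 8.73, 0.0399, 1.55 and 4.82 CPM in the same lines (-2.46 ± 0.70, adjusted p = 0.0175, edgeR), and Dll4 at 5.03 to 8.88 CPM and then at 0 to 2.75 CPM (-2.90 ± 0.62, adjusted p = 0.00249, edgeR). All 6 lines fell for each of these 3 genes, and line S9488-D, with 0.0399 CPM of Dll1 and no read of Dll4, fell furthest. Hes1 fell by 0.43 ± 0.14 (adjusted p = 0.0301, edgeR), from 49.5 to 77.8 CPM down to 40.3 to 57.2 CPM, with overlap between groups. That call was lost in 5 of the fits that leave out 1 library and without the filter on low counts (adjusted p = 0.0728, edgeR). In all, 4 of the 8 genes passed, where 19.1% of all genes did, and 2 (Dll4 and Atoh1) when only these 2 groups entered the fit. With only these 2 groups and the line as a block, 6 of the 8 passed, where 4649 of all genes did. Among them were Dll1 (-3.23, adjusted p = 0.0298, edgeR) and Hes1 (-0.43, adjusted p = 0.0282, edgeR).

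Olfm4 differed between spheroid lines by orders of magnitude before deletion, and was lower with 4-OHT in each. In the order of lines given above it was at 2370, 11.7, 3888, 20.7, 4.78 and 153 CPM with DMSO and at 96.5, 0.137, 199, 0.918, 0.0516 and 5.69 CPM with 4-OHT. In the 4 lines with more than 3 reads after 4-OHT the level was 24.5, 19.6, 22.5 and 26.9 times lower, and lines S9488-F and S9488-H had only 2 reads and 1 read left. The DMSO and 4-OHT groups overlapped because of the spread between lines. In the fit of all spheroid groups, without the line, the change was -4.43 ± 2.24 (adjusted p = 0.182, edgeR). With only these 2 groups it was -4.45 (adjusted p = 0.172, edgeR), and with only these 2 groups and the line as a block it was -4.74 (adjusted p = 4.65e-05, edgeR). Notch2, which was higher in all 6 lines, passed in the blocked fit at 0.46 (adjusted p = 0.0125, edgeR), against an adjusted p of 0.213 with only the 2 groups and 0.0893 with all groups (edgeR). Over all genes, 4649 were called with the 2 groups and the block, 1978 with the 2 groups alone and 2864 with all groups.

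**Figure D3:**
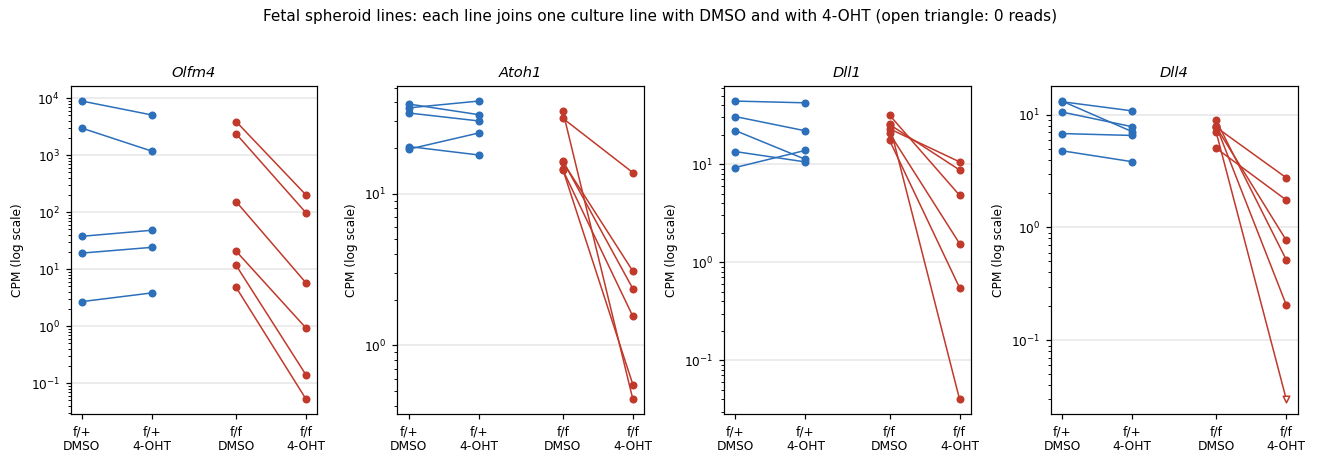
Levels of Olfm4, Atoh1, Dll1 and Dll4 (CPM, log axis) in each fetal spheroid line with DMSO and with 4-OHT, flox/+ lines in blue and flox/flox lines in red. Every flox/flox line is lower with 4-OHT for each of the 4 genes, and flox/+ lines of Olfm4 keep their order from 3.83 to 5077 CPM with 4-OHT.

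Jag1 (0.40, adjusted p = 0.413, edgeR) and Notch1 (-0.29, adjusted p = 0.545, edgeR) did not pass in flox/flox spheroids. Jag1 was high throughout, at 70.2 to 138 CPM with DMSO and 103 to 198 CPM with 4-OHT, and Notch1 at 27.8 to 63.9 and 22.2 to 48.9 CPM. In flox/+ spheroids none of the 8 genes passed with 4-OHT in edgeR or DESeq2, 0% of all 15032 genes passed, and none of the 8 had an unadjusted p under 0.05. That fit left out the line, and only 15 of all genes had an unadjusted p under 0.05 in it. It therefore does not show that the genes were unchanged. Dll4 was lower with 4-OHT in all 5 flox/+ lines (log2 -0.899 to -0.055), the only gene of the 8 to move 1 way in every line. Olfm4 there was at 37.7, 2.69, 19.1, 2983 and 8902 CPM with DMSO and 48.1, 3.83, 24.1, 1175 and 5077 CPM with 4-OHT in lines S9488-I, S9612-J, S9612-G, S9612-A and S9020-C, lower in 2 lines and higher in 3. With only these 2 groups and the line as a block, 1 gene passed, and it was none of the 8, while 0 passed with the 2 groups alone. Before deletion, none of the 8 genes passed between flox/flox and flox/+ spheroids with DMSO by either tool (0% of all genes in edgeR, none of the 8 at an unadjusted p under 0.05).

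With 4-OHT in both, flox/flox spheroids were lower than flox/+ spheroids in Dll4 (-2.84 ± 0.63, adjusted p = 0.00587, edgeR), Hes1 (-0.64 ± 0.14, adjusted p = 0.00556, edgeR) and Atoh1 (-3.01 ± 0.61, adjusted p = 0.00339, edgeR), 3 of the 8 genes, where 10.5% of all genes passed. Dll4 did not pass when only these 2 groups were fitted (adjusted p = 0.0604, edgeR). Dll1 (-2.18, adjusted p = 0.0545, edgeR) and Olfm4 (-4.63 ± 2.29, adjusted p = 0.216, edgeR) did not pass. The test of whether 4-OHT acted differently in the 2 genotypes called none of the 8 genes without the line in the model (1.62% of all genes in edgeR), 3 at an unadjusted p under 0.05 (Dll1, Dll4 and Atoh1) and 2 with DESeq2. With the line as a block, 2758 genes in place of 243 passed, among them Olfm4 (-4.44, adjusted p = 7.24e-05, edgeR), Atoh1 (-3.15, adjusted p = 0.0104, edgeR) and Dll4 (-2.94, adjusted p = 0.0212, edgeR).

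Jag1, Notch1 and Notch2 were higher in spheroids than in adult organoids of the second set, with 4-OHT in both. Other adult organoids, in a table scaled separately, were not compared by test. With DMSO in the A-485 set, group means were 67.3 CPM for Notch1 and 49.9 CPM for Notch2. Those lie among the spheroid group means, 38.1 to 69.9 and 40.7 to 55.9 CPM, while Jag1 (19.2 CPM) was below them. In the first organoid set Jag1 was at 31.2 to 36.8 CPM with DMSO and 57.4 to 82.5 CPM with 4-OHT. Its means there, 33.5 and 65.8 CPM, were below the spheroid means of 105 to 139 CPM. Single libraries overlapped, as the lowest spheroid libraries were at 35.5 (flox/+, DMSO), 53.7 (flox/+, 4-OHT) and 70.2 CPM (flox/flox, DMSO). Among flox/+ cultures with 4-OHT, Jag1 was at 158, 183, 108, 118 and 53.7 CPM in spheroids and at 18.4, 17.2, 16.2 and 12.4 CPM in organoids, a log2 difference of 2.96 ± 0.29 (adjusted p = 1.67e-06, edgeR). The lowest of these spheroid lines lay far above the highest of these organoid libraries. Notch1 was higher by 0.92 ± 0.30 (adjusted p = 0.0199, edgeR) and Notch2 by 0.86 ± 0.17, and the Notch1 call was lost without spheroid replicate 1 (0.54, adjusted p = 0.076, edgeR) or organoid replicate 3 (adjusted p = 0.0634, edgeR). These 3 genes were all that passed of the 8, where 39.1% of all genes did. Atoh1 did not pass (1.03, adjusted p = 0.236, edgeR), although its flox/+ spheroid libraries all lay above the flox/+ organoid libraries. It passed when only these 2 groups were fitted (0.999, adjusted p = 0.00588, edgeR). Among flox/flox cultures 5 of the 8 passed, where 31.9% of all genes did: Jag1 (1.96 ± 0.27), Notch1 (1.37 ± 0.30) and Notch2 (0.86 ± 0.16) were higher in spheroids, and Dll1 (-2.45 ± 0.75) and Dll4 (-2.07 ± 0.64) lower. Both Delta ligand calls were lost when only these 2 groups were fitted (adjusted p = 0.0766 and 0.108, edgeR).

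A-485 acted on the 8 genes in an order that depended on dose. At 3 µM, 3 genes passed, where 19.2% of all genes did. Olfm4 was at 6414, 5304, 5445 and 6157 CPM with DMSO and at 343, 1050, 1151 and 736 CPM with 3 µM in lines S6026, S6070, S6074 and S6076 (-2.84 ± 0.29, adjusted p = 1.98e-05, edgeR). Notch1 was at 67.5, 60.3, 77.8 and 63.5 CPM and then 18.5, 25.5, 34.1 and 16.6 CPM (-1.51 ± 0.33, adjusted p = 0.00366, edgeR), and Jag1 at 22.2, 15.7, 23.2 and 15.7 CPM and then 36.7, 44.2, 36.8 and 44.2 CPM (1.07 ± 0.19, adjusted p = 0.0006, edgeR). For these 3 genes the groups did not overlap. Hes1 (-0.36, adjusted p = 0.0629, edgeR) was lower in all 4 lines and passed with the line as a block (-0.35, adjusted p = 0.0329, edgeR). It also passed with the DESeq2 test (adjusted p = 0.0305), with DESeq2 size factors (adjusted p = 0.0467, edgeR) and without 3 µM replicate 4 (adjusted p = 0.0235, edgeR). Dll4, Atoh1 and Notch2 did not pass. Dll1 did not pass either (0.39, adjusted p = 0.179, edgeR), although its 44.4 to 66.9 CPM lay above the 39.3 to 40.4 CPM with DMSO in every line.

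At 5 µM all 8 genes passed against DMSO, 2 upward and 6 downward, where 49.6% of all genes did. Dll1 went to 18.5, 23.8, 23.1 and 10.3 CPM (-1.08 ± 0.20), Dll4 from 13.5 to 18.8 CPM down to 2.64 to 6.20 CPM (-1.82 ± 0.47), and Atoh1 from 28.6, 14.01, 21.8 and 21.1 to 8.97, 4.60, 5.19 and 3.21 CPM (-1.95 ± 0.48). Notch1 went to 1.63, 3.73, 6.97 and 3.02 CPM (-4.14 ± 0.38, adjusted p = 1.08e-07, edgeR) and Olfm4 to 45.4, 43.7, 55.7 and 43.7 CPM (-6.95 ± 0.35, adjusted p = 5.73e-09, edgeR). Jag1 stayed up (0.98 ± 0.19), Notch2 rose by 0.43 ± 0.12 and Hes1 fell by 0.63 ± 0.13. Against 3 µM, 6 of the 8 genes passed, where 24.5% of all genes did, and the 2 others were Jag1 (-0.09) and Hes1 (-0.28).

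At 10 µM all 8 passed again, 1 upward and 7 downward, where 62% of all genes did. Olfm4 had 0 reads in each of the 4 libraries, so it was at least 18018-fold lower than with DMSO, against a floor of 3 reads per library (0.324 CPM in the shallowest). Atoh1 had 0 reads in 3 lines and 11 reads (0.802 CPM) in the wild-type line S6026. Notch1 was at 0.656, 0.831, 0.198 and 0.108 CPM (-7.14 ± 0.47, adjusted p = 7.16e-10, edgeR), Dll4 at 2.70, 1.32, 0.529 and 0 CPM (-3.82 ± 0.53), and Dll1 at 6.42, 6.16, 5.29 and 5.28 CPM (-2.79 ± 0.21). Hes1, a Notch target in many tissues, still had 54.5, 43.5, 40.3 and 33.3 CPM (-1.30 ± 0.13), from 97.5 to 109 CPM with DMSO. Notch2 rose further, to 85.2, 113, 113 and 93.4 CPM from 51.1, 43.1, 46.6 and 58.9 CPM with DMSO (1.01 ± 0.13, adjusted p = 1.39e-06, edgeR).

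Jag1 was the only 1 of the 8 genes called in opposite directions against DMSO at different doses. After its rise at 3 and 5 µM it fell to 11.7, 13.2, 7.54 and 10.1 CPM at 10 µM, below every DMSO library (-0.86 ± 0.19, adjusted p = 0.000751, edgeR), and the step from 5 to 10 µM was -1.84 ± 0.19 (adjusted p = 1.99e-06, edgeR). From 5 to 10 µM all 8 genes passed, where 18.9% of all genes did, and Notch2 was the 1 that rose (0.58 ± 0.12). Dll4 did not pass in that step when only the 2 groups were fitted (adjusted p = 0.0694, edgeR). The comparisons with DMSO share their 4 control libraries, and wild-type and flox/flox lines entered together. Scaling by library totals moved the median of all genes by 0.12 at 3 and 10 µM, which turned no sign among the changes given for A-485.

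**Figure D4:**
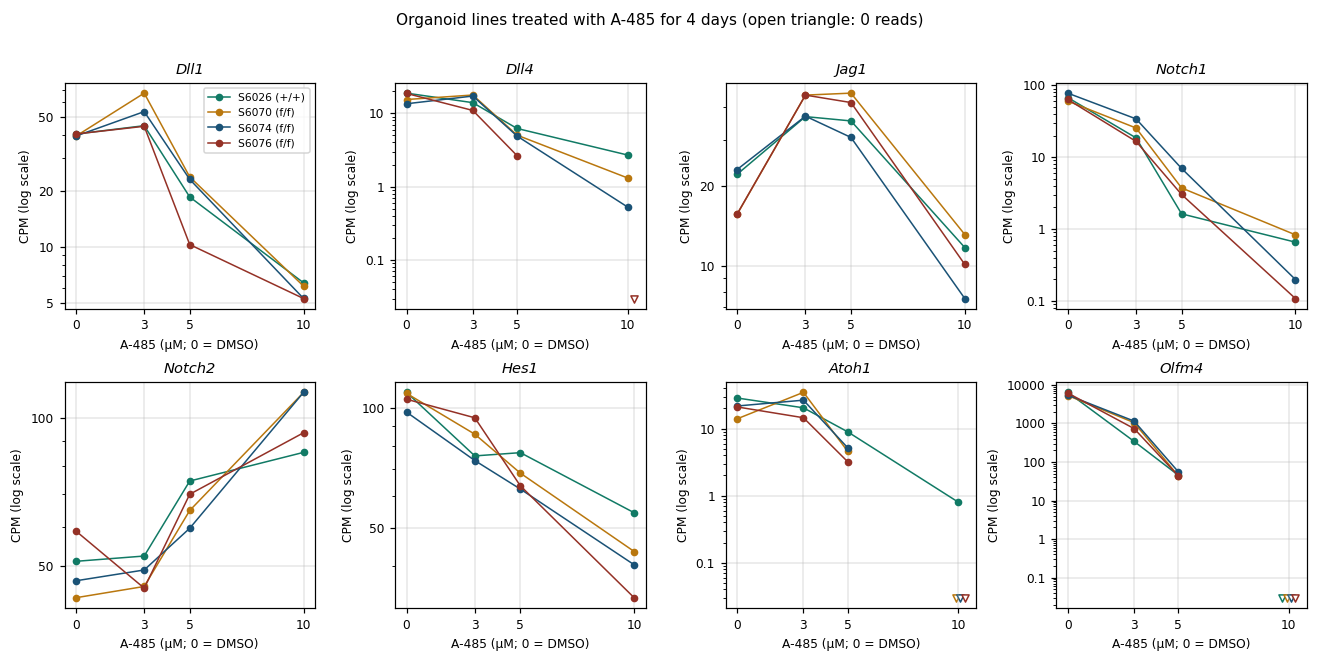
Levels of the 8 genes (CPM, log axis) in 4 organoid lines with DMSO (0) and 3, 5 and 10 µM A-485. Each coloured line is 1 organoid line and open triangles mark libraries without a read. Jag1 rises and then falls, Notch2 rises from 5 µM on, and Olfm4 is without a read in all 4 lines at 10 µM.

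The balance of the 2 receptors was described per kilobase of transcript, since levels of different genes compare only per length. In the control groups the median ratio of Notch2 to Notch1 ran from 0.875 in heterozygous Rosa26-CreER crypts to 1.39 in flox/+ spheroids with DMSO. It was 3.30 (1.67 to 3.94) in homozygous against 0.875 (0.746 to 0.989) in heterozygous Rosa26-CreER crypts, 2.68 against 0.895 in their villi, 3.59 against 1.03 in Vil1-CreER crypts and 4.07 against 0.930 in Vil1-CreER villi. In organoids it was 3.50 against 0.963 in the first set and 2.61 against 1.09 in the second. The homozygous or deleted libraries lay above all their controls in each of these 6 pairs of groups. In flox/flox spheroids the ratio was 1.96 (1.42 to 2.79) with 4-OHT and 1.16 (0.729 to 1.64) with DMSO, with overlap. With A-485 it went from 0.971 to 2.97, 26.8 and 465 at 3, 5 and 10 µM, where Notch1 was close to the limit of counting. The ratio itself was not tested.

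**Figure D5:**
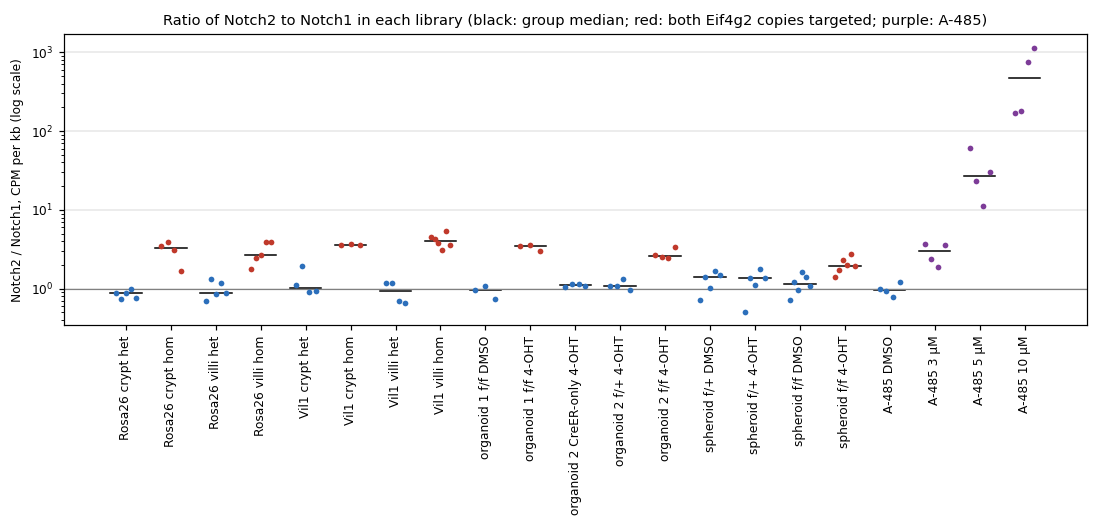
Ratio of Notch2 to Notch1 (CPM per kilobase, log axis) in every library by group, with group medians in black and a grey line at 1. Red groups, with both Eif4g2 copies targeted, have medians from 1.96 to 4.07, and the A-485 groups climb to 465.

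The ratio of Dll1 to Dll4 was also taken per kilobase. Its median was 1.74 in heterozygous and 3.15 in homozygous Rosa26-CreER crypts, 2.63 and 6.28 in their villi, 2.68 and 4.41 in Vil1-CreER crypts, and 4.11 and 9.25 in Vil1-CreER villi. In organoids it was 2.74 with DMSO and 8.68 with 4-OHT in the first set, and 2.49 in flox/+ and 4.96 in flox/flox cultures of the second. In flox/flox spheroids it was 3.16 with DMSO and 2.89 with 4-OHT (5 lines with reads of both), where both ligands were near the limit of counting in several lines. The median ratio of Hes1 to Atoh1 was 1.49 in heterozygous and 2.12 in homozygous Rosa26-CreER crypts and 1.13 and 3.39 in their villi. With Vil1-CreER it was 2.16 and 2.69 in crypts and 0.618 and 5.59 in villi. It was 4.40 with DMSO and 10.9 with 4-OHT in the first organoid set, and 3.63 and 29.9 in flox/flox spheroids. In the second organoid set it was 9.43 in CreER-only, 5.94 in flox/+ and 5.58 in flox/flox cultures. Ranges overlapped in Rosa26-CreER villi, Vil1-CreER crypts and spheroids, and between flox/+ and flox/flox organoids. These ratios were not tested.

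Of 51 further genes of the Notch pathway (other ligands and receptors, processing enzymes, nuclear partners and targets), 45 were tested in Rosa26-CreER crypts and 16 passed, 8 in each direction, where 20.2% of all genes did. Jag2, the second Jagged ligand, rose by 2.47 there, by 3.14 in Vil1-CreER crypts, by 2.14 and 2.16 in the villi of the 2 drivers, and by 1.49 and 1.34 in the 2 organoid sets. Ep300, the gene for p300, rose in each of these 6 comparisons and in flox/flox spheroids, by 0.88, 0.67, 1.26, 0.98, 1.31, 1.52 and 1.28 in the same order of crypts, villi, organoids and spheroids. Lfng, a glycosyltransferase that modifies Notch receptors, fell by 3.82 and 1.98 in the organoid sets and by 3.45 in flox/flox spheroids. Over the comparisons of flox/flox or homozygous with control, 22 of 45 passed in Vil1-CreER crypts (29.3% of all genes), 20 of 42 in Rosa26-CreER villi (33.2%), 30 of 42 in Vil1-CreER villi (42.5%), 24 of 43 in the first organoids (35.4%), 28 of 43 in the second (46.8%) and 12 of 45 in flox/flox spheroids (19.1%). With 10 µM A-485, 29 of 44 passed, where 62% of all genes did, with Nrarp, a Notch target and feedback inhibitor, which fell by 5.61, and Dlk2, a non-canonical ligand, which rose by 7.84.

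Of 17 other regulators of the secretory lineages, most of which act with or after Atoh1, 10 fell and 0 rose in Rosa26-CreER crypts, where 20.2% of all genes passed, and 14 fell and 1 rose in Vil1-CreER crypts, where 29.3% did. The gene that rose was Foxa1 (0.49). Bhlha15, a maturation factor of secretory cells, fell by 2.06 in Rosa26-CreER crypts and by 3.42 and 2.21 in the organoid sets. In flox/flox spheroids 14 of 17 fell (19.1% of all genes passed), with a list median of -3.01 beside -0.02 over all genes, and in flox/+ spheroids none passed. With A-485, 1 of 16 fell and 1 rose at 3 µM, 13 fell and 1 rose at 5 µM, and 14 fell and 1 rose (Foxa1, 1.20) at 10 µM, beside 19.2%, 49.6% and 62% of all genes that passed. At 10 µM Gfi1 fell by 8.58 and Spdef, a factor of goblet and Paneth cells, fell by 7.50. Of 14 other stem cell genes, 13 fell in Rosa26-CreER crypts and 11 in Vil1-CreER crypts (20.2% and 29.3% of all genes passed), 13 in each organoid set (35.4% and 46.8%) and 3 in flox/flox spheroids, a share near the 19.1% of all genes.

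Across the 21 groups, group means ran from 41.6 CPM (heterozygous Rosa26-CreER crypts) to 0.201 CPM (10 µM A-485) for Atoh1, from 73.0 CPM (homozygous Rosa26-CreER villi) to 4.38 CPM (flox/flox spheroids with 4-OHT) for Dll1 and from 22.1 CPM (heterozygous Rosa26-CreER crypts) to 0.999 CPM (flox/flox spheroids with 4-OHT) for Dll4. Jag1 ran from 139 CPM (flox/flox spheroids with 4-OHT) to 8.63 CPM (heterozygous Rosa26-CreER villi), Notch1 from 69.9 CPM (flox/+ spheroids with 4-OHT) to 0.448 CPM (10 µM A-485), and Notch2 from 101 CPM (10 µM A-485) to 4.48 CPM (heterozygous Vil1-CreER villi). Hes1 was highest in organoids with DMSO of the A-485 set (105 CPM) and lowest in heterozygous Rosa26-CreER villi (13.5 CPM), and Olfm4 went from 5830 CPM in the former to 0 at 10 µM A-485. The 4 tables were scaled separately, so this order across tables is a description. Neighbours in the order overlapped in 18 to 20 of the 20 neighbouring pairs for each gene. The exceptions included Notch2, whose 10 µM libraries (85.2 CPM and above) lay above all 5 µM libraries, and which dropped from 26.3 CPM and above in its lowest crypt or culture group to 12.9 CPM and below in villi.

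The genes whose pattern was most like that of each member were picked by Pearson's r over the 21 groups, among 11310 genes, with each group's mean log2 CPM taken relative to the mean of its own set. Groups share lines, animals and tables, so r is a description. For Olfm4 they were Rgcc (0.976), Aldh1b1 (0.972) and Spink4 (0.972), for Notch1 Pkp1 (0.973), Rgcc (0.962) and Olfm4 itself (0.958), and for Atoh1 Hepacam2 (0.986), Tpsg1 (0.979) and Rep15 (0.976). For Dll4 they were led by Ano7 (0.977), for Dll1 by Vdr (0.948), for Notch2 by Spred1 (0.980), for Hes1 by Trit1 (0.961) and for Jag1 by Mgat4c (0.895). Dll1 and Dll4 had an r of 0.891 with each other, and Jag1 had the least in common with the others, from -0.157 to 0.266.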

How the data were processed

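Poly(A) RNA was sequenced from 92 libraries in 21 groups, and the authors deposited 4 tables of raw counts per gene. Per the submitters' processing notes, HISAT2 (2.0.5) and the builds GRCm38 and mm10 were used. The counter, its annotation and its strand setting are not given in the sources used here. All columns were matched to samples by their labels. Libraries were compared with edgeR 4.0.16 (R 4.3.3): genes with low counts were removed (filterByExpr), libraries were scaled by TMM, and quasi-likelihood F-tests were adjusted by Benjamini-Hochberg over all genes tested, with calls at an adjusted p under 0.05. The SE is the log2 fold change divided by the square root of F. Script steps were tested on simulated data.

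Totals of 8652040 to 37611126 counts set the precision, and floors cover counting error only. Library names give each organoid or spheroid replicate of a group a line name of its own, but the sources used here do not say that each line came from a separate animal, so p-values measure the spread between these samples. Spheroid line names share the stems S9484, S9488, S9612 and S9020, and S9488 and S9020 occur in both genotypes. What a shared stem stands for is not given, and the tests treated the lines as separate. Organoid and spheroid lines and animals pair libraries by label. Homozygous and heterozygous Rosa26-CreER crypts of the same replicate number came from different animals. Their deviations had correlations of 0.102 to 0.668, but unlike numbers were not compared, so a pairing by number was not shown. The value with that block stands beside a result it changes, while the values printed are from the fit without the block. Alternatives were DESeq2 1.42.0 (test and size factors), no filter, blocks, fewer or more groups, Y-linked reads as a covariate and leaving out each library. WENR libraries were not analysed here. The 8 genes and all lists were chosen with earlier results of these data known. Of the lists, at most the 3 called genes with the largest changes per direction and comparison were open to naming, at a mean log2 CPM of at least 1, and for each of the 8 genes the 3 most alike.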

Additional observations from a re-analysis of the deposited data

Results flagged for a closer look

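Dixon's test was run on 143 sets, each of 1 gene in 1 group of 4 to 6 libraries. In 11 sets 1 library stood apart from the rest of its group, where chance flags about 1 in 20. The sets of different genes share libraries, so they are not independent. In Vil1-CreER heterozygous villi, replicate 3 was high for both Dll1 (80.8 CPM) and Hes1 (20.7 CPM), and in the homozygous villi replicate 4 was high for Olfm4 (80.1 CPM). In Rosa26-CreER tissue, Dll4 was high in heterozygous villus replicate 4 (24.9 CPM) and Hes1 in homozygous crypt replicate 5 (47.1 CPM). Jag1 was high in flox/flox organoid replicate 4 of the second set (42.7 CPM). In spheroids with 4-OHT, Notch1 was high in flox/+ replicate 1 (133 CPM), Olfm4 in flox/+ replicate 5 (5077 CPM) and Atoh1 in flox/flox replicate 3 (13.8 CPM). With A-485, Olfm4 was high in line S6074 at 5 µM (55.7 CPM), and Atoh1 was detected at 10 µM in line S6026 (0.802 CPM) alone of the 4 lines.

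The effect of genotype differed between crypts and villi, by an interaction term in edgeR, for Dll1 (-1.50), Dll4 (-0.85), Hes1 (-1.42) and Olfm4 (-2.63) with Rosa26-CreER, and for Dll1 (-1.17), Hes1 (-1.25), Atoh1 (1.30) and Olfm4 (-2.80) with Vil1-CreER.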

How the results depend on the processing

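Of 112 calls made on the 8 genes over the 24 comparisons, 95 were kept in every alternative run and 17 were lost in at least 1. The number of the 8 genes called moved by over 1.5 times in these cases. In flox/flox spheroids with 4-OHT it went from 4 to 2 with only the 2 groups. Between the genotypes with 4-OHT it went from 3 to 5 with the DESeq2 test, and to 0 with the replicate number as a block, only the 2 groups and only the first 5 numbers together, a fit whose numbers pair no lines. For the difference of the 4-OHT effects it went from 0 to 2 with the DESeq2 test and to 3 with the line as a block. Between flox/flox spheroids and organoids it went from 5 to 3 with only the 2 groups. The causes were not tested. Apart from the changes given beside the results, the line and animal blocks changed no call on the 8 genes. In Rosa26-CreER villi the replicate number as a block called Notch2 (adjusted p = 0.0284, edgeR) and lost Olfm4 (adjusted p = 0.123, edgeR).

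Signs turned only for small or scaling-dependent values. Notch2 between spheroid genotypes with 4-OHT was 0.02 and became -0.016 with DESeq2 size factors, -0.015 with the DESeq2 test, -0.127 with the replicate number as a block, the 2 groups and the first 5 numbers together, and -0.001 with only the 2 groups. Olfm4 between spheroid genotypes with DMSO became 1.69 with that block and the same restrictions. The Dll1 crypt over villus ratio became 0.531 and 0.020 by library totals, and 0.507 and 0.135 by totals without mitochondrial genes. Leaving out 1 library turned signs in these ranges: in the second organoids, Notch2 -0.0727 to 0.0637 (flox/flox against flox/+), Dll1 -0.207 to 0.0155 (flox/flox against CreER-only), Dll4 -0.126 to 0.0565 and Hes1 -0.0854 to 0.0103 (flox/+ against CreER-only). In flox/+ spheroids they were Dll1 -0.732 to 0.0773, Jag1 -0.150 to 0.361, Notch1 -0.117 to 0.520, Hes1 -0.0735 to 0.0869, Atoh1 -0.173 to 0.102 and Olfm4 -2.95 to 0.745. Between spheroid genotypes they were Jag1 -0.022 to 0.349 and Notch2 -0.0852 to 0.104 with 4-OHT, and Dll1 -0.177 to 0.362, Jag1 -0.381 to 0.130 and Olfm4 -2.17 to 0.543 with DMSO. With 3 µM A-485 they were Notch2 -0.129 to 0.0222 and Atoh1 -0.0692 to 0.340, and from 3 to 5 µM Jag1 -0.168 to 0.007.

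Counts over all genes moved by over 1.5 times in Rosa26-CreER crypts (3198, and 1937 to 2086 without homozygous replicate 4 or heterozygous replicate 2, 3 or 5), Rosa26-CreER villi (4504, and 2967 with Y-linked reads), Vil1-CreER crypts (4960, and 3223 without homozygous replicate 1), the Rosa26-CreER interaction (1904, and 2884 with the DESeq2 test or 1221 without the filter), the first organoids (5422, and 3079 with the A-485 libraries in the fit), and flox/+ against CreER-only (16, and 148 with the DESeq2 test, 60 without the filter, 4 with the block, 1 to 32 without 1 library). They also did between spheroid genotypes with 4-OHT (1577, and 880 with only the 2 groups, or 140 with the 2 groups, the first 5 numbers and the block together), for the difference of the 4-OHT effects (243, and 603 with the DESeq2 test or 123 without the filter), with 3 µM A-485 (2637, and 1374 with only the 3 flox/flox lines) and from 3 to 5 µM (3358, and 2229 with only the 2 groups). Depth limits Atoh1, Dll4 and Olfm4 in the libraries with no or few reads.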

Other observations

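Line S6070 was grown with DMSO in both adult organoid experiments of the same count table. Its Olfm4 level was 635 CPM on day 6 in the first set and 5304 CPM on day 4 in the A-485 set, and since day and experiment differ together, their parts cannot be told apart.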
